A study of Mus musculus with 6 samples.

Results

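The high mobility group (HMG) proteins are small, abundant proteins of chromatin, and their RNA was followed in immature mouse T cells that carry a GATA3 transgene. The 8 genes described here are Hmgb1, Hmgb2, Hmgb3, Hmga1, Hmgn1, Hmgn2, Hmgn3 and Hmgn5. They were taken by gene symbol from a table of 41254 gene symbols, and their rows hold 49 of its 100144 transcripts. RNA was sequenced from DN3a thymocytes of adult C57BL/6 mice, in 3 wild-type libraries and in 3 libraries of the genotype that the labels write Tg_Cd2_GATA3, here called transgenic. DN3a cells are T cell precursors without CD4 and CD8, at the stage when the beta locus of the T cell receptor is rearranged. Beyond the Cd2 in this name, the labels do not say which promoter drives the transgene or how many transgenic lines were used. Whether every library is a separate animal is not stated in the labels. The p-values therefore speak of the spread between libraries, which may be partly technical.

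HMGB proteins carry a pair of HMG boxes that bend DNA, HMGA proteins bind AT-rich DNA through AT hooks, and HMGN proteins bind the nucleosome and compete with linker histone H1 for chromatin. HMGB1 and HMGB2 are known in lymphocytes as cofactors of the RAG recombinase, whose cutting of recombination signals they promote by bending the DNA. HMGB1 is the most widely expressed of its family, while HMGB2 is known for high levels in dividing cells and in thymus.

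The libraries held 39022281 to 46985605 fragments assigned to transcripts. The normalised CPM of Gata3 itself (fragments scaled to library size) was 49.1, 38.2 and 43.5 in the wild-type libraries (replicates 1 to 3) against 58.6, 53.6 and 61.6 in the transgenic ones. The transgenic libraries were all above the wild-type ones, with a log2 fold change of 0.41 ± 0.10 (SE; edgeR quasi-likelihood test, adjusted p = 0.17). Wild-type replicate 1 and transgenic replicate 3 carried Y-linked RNA and the other 4 libraries almost none. The defining genes of DN3 cells (Cd3e, Ptcra, Il2ra, Rag1, Notch1 and Thy1) summed to 932 to 971 FPKM in wild-type and 940 to 993 FPKM in transgenic libraries. Of these 6 genes, 2 had a log2 fold change below 0 and 4 above 0. Il2ra was measured lower, at 367, 379 and 397 CPM in wild type and 346, 342 and 328 CPM in transgenic libraries. Notch1 was measured higher, at 1710, 1500 and 1550 CPM against 1760, 1800 and 1840 CPM. Their log2 fold changes were -0.171 ± 0.055 and 0.185 ± 0.058 (SE; edgeR, adjusted p of 0.232 and 0.219). Genes of later alpha beta thymocytes summed to 21.3 to 25.0 FPKM in wild type and 12.2 to 18.1 FPKM in transgenic libraries. On the log2 fold change scale (transgenic over wild type) 6 of 6 were below 0, against 49.8% of all genes. At an unadjusted p under 0.05, 4 of them were lower, against 7.7% of all genes. The part of these later thymocyte genes in the differences below was not tested. Of the other cell types whose markers were summed, B cell and natural killer cell genes stayed at or below 0.23 FPKM in every library, with Pax5 at 0. The wild-type and transgenic ranges were 15.7 to 18.1 and 17.5 to 20.1 FPKM for myeloid genes, 1.26 to 2.10 and 1.11 to 1.6 FPKM for dendritic cell genes, and 1.07 to 6.35 and 3.88 to 12.7 FPKM for erythroid genes. They were 488 to 520 and 360 to 677 FPKM for gamma delta T cell genes, and 40.3 to 41.3 and 40 to 48 FPKM for stromal and epithelial genes. Single genes carried several of these sums: Tcrg-C1, at 341 to 655 FPKM, that of gamma delta T cells (Trdc at 0), Epcam, at 40 to 47.9 FPKM, that of stroma and epithelium (the other 4 genes at most 0.133, Pdgfra at 0), and Lyz2, at 12.3 to 16.6 FPKM, the myeloid one (Elane at 0). The ranges of these other cell types all overlapped between the groups, while those of the later alpha beta thymocyte genes did not.

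The upstream sequences of the genes that lie together in the results are printed first, because the DNA next to their start sites holds different short motifs. RefSeq start sites on GRCm38.p6 were matched for 7 of the 8 genes. The starts lie 4 to 64 bases from those of the main transcripts in GENCODE M21. Each line gives the 250 bases before the start on the gene's own strand, 5′ to 3′, and capitals mark matches on either strand to CCAAT, to TTTGAA and to TTTNNCGC. CCAAT is the box bound by NF-Y, TTTGAA is the cell cycle homology region of genes expressed in G2 and mitosis, and TTTNNCGC is an E2F-type motif. The windows are chr8:57511593-57511842 on the plus strand for Hmgb2, chrX:71555667-71555916 on the plus strand for Hmgb3, chr5:149053058-149053307 on the minus strand for Hmgb1 and chr4:133967992-133968241 on the minus strand for Hmgn2.
Hmgb2: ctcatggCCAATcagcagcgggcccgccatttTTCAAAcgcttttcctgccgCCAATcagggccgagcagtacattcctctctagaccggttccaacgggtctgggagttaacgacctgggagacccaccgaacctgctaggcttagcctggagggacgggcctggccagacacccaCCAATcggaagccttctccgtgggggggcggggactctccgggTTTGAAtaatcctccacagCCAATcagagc
Hmgb3: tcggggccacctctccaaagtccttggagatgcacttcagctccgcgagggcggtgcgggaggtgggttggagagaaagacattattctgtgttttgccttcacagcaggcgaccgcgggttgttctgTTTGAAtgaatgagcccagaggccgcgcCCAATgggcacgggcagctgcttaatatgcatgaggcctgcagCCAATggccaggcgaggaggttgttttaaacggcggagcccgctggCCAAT
Hmgb1: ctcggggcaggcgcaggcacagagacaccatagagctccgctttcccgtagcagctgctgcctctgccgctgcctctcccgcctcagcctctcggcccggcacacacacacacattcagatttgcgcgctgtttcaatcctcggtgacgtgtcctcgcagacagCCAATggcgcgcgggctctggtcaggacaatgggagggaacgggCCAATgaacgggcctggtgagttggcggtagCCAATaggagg
Hmgn2: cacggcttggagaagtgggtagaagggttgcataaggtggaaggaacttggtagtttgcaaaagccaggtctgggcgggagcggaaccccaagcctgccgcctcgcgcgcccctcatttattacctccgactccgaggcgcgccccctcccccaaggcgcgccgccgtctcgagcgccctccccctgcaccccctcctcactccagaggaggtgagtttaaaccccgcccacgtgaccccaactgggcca

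Hmgb2 had 4 CCAAT matches, whose first bases lay 243, 198, 73 and 11 bases before the end of the window, and 2 TTTGAA matches at 218 and 30 bases. Hmgb3 had 3 CCAAT matches at 94, 51 and 5 bases and 1 TTTGAA match at 122 bases. Hmgb1 had 3 CCAAT matches at 86, 42 and 11 bases and no TTTGAA, and the window of Hmgn2 held neither motif. Of the genes whose windows are not printed, Hmgn1 and Hmgn5 had 2 CCAAT matches each, Hmga1 had none, and none of them had TTTGAA. Across 32851 RefSeq promoter windows of the same length, 33.8% held CCAAT, 2.79% held it at least 3 times, 0.84% held it at least 4 times and 16.0% held TTTGAA. At least 2 CCAAT together with at least 1 TTTGAA stood in 1.53% of all windows and in 2 of the 7 HMG windows, those of Hmgb2 and Hmgb3. TTTNNCGC, held by 4.3% of all windows, and the GATA motifs AGATAA and TGATAA, held by 10% and 7.9%, had no match in the 7 windows. A match of letters describes these windows and does not show that a factor binds there.

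The 8 genes spanned a wide range of RNA levels. In FPKM, a per-length unit, summed over the transcripts of a gene, the wild-type means in falling order were 891 ± 67.9 for Hmgb1, 316 ± 40 for Hmgn2, 218 ± 28.6 for Hmgb2, 121 ± 16.9 for Hmga1, 120 ± 9.54 for Hmgn1, 34.3 ± 3.79 for Hmgb3, 20.3 ± 0.854 for Hmgn3 and 4.48 ± 0.54 for Hmgn5 (SD, n = 3 each). Hmga1 and Hmgn1 did not differ beyond their spread, and the other neighbours in this order did. Hmgb1 ranked 157 and Hmgn5 ranked 9200 among all genes by wild-type level. The summed FPKM of Hmgb1 includes short transcripts with few fragments. On the length of its main transcript alone, Hmgb1 was at 485 ± 37.7 FPKM in wild type and 405 ± 17.1 FPKM in transgenic cells (SD, n = 3), still above all other members. In transgenic cells the summed FPKM placed the genes in the same order at the top, with 751 ± 13.5 for Hmgb1, 253 ± 12.0 for Hmgn2 and 154 ± 13.5 for Hmgb2. Hmgn3 was at 23.2 ± 3.64 FPKM and Hmgb3 at 24.9 ± 1.89 FPKM there, a difference within their spread.

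Most HMG genes were measured lower in transgenic than in wild-type DN3a cells, and none passed the threshold over all genes. Of the 8 genes, 7 had a log2 fold change (transgenic over wild type) below 0, against 49.8% of 14653 genes tested, and the median over the 8 was -0.31, against 0.001 over all genes. In edgeR's quasi-likelihood test, 0 of the 8 had a Benjamini-Hochberg adjusted p under 0.05, where 0.0136% of all genes did. At an unadjusted p under 0.05, 7 of the 8 were lower and 0 higher, against 7.7% of all genes that were lower. All 3 transgenic values lay below all 3 wild-type values for 5 of the 8, namely Hmgb1, Hmgb2, Hmgb3, Hmgn2 and Hmgn5, against 10.1% of all genes. In these bulk samples, a lower level cannot tell fewer cells that express a gene from less RNA per cell.

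**Figure D1:**
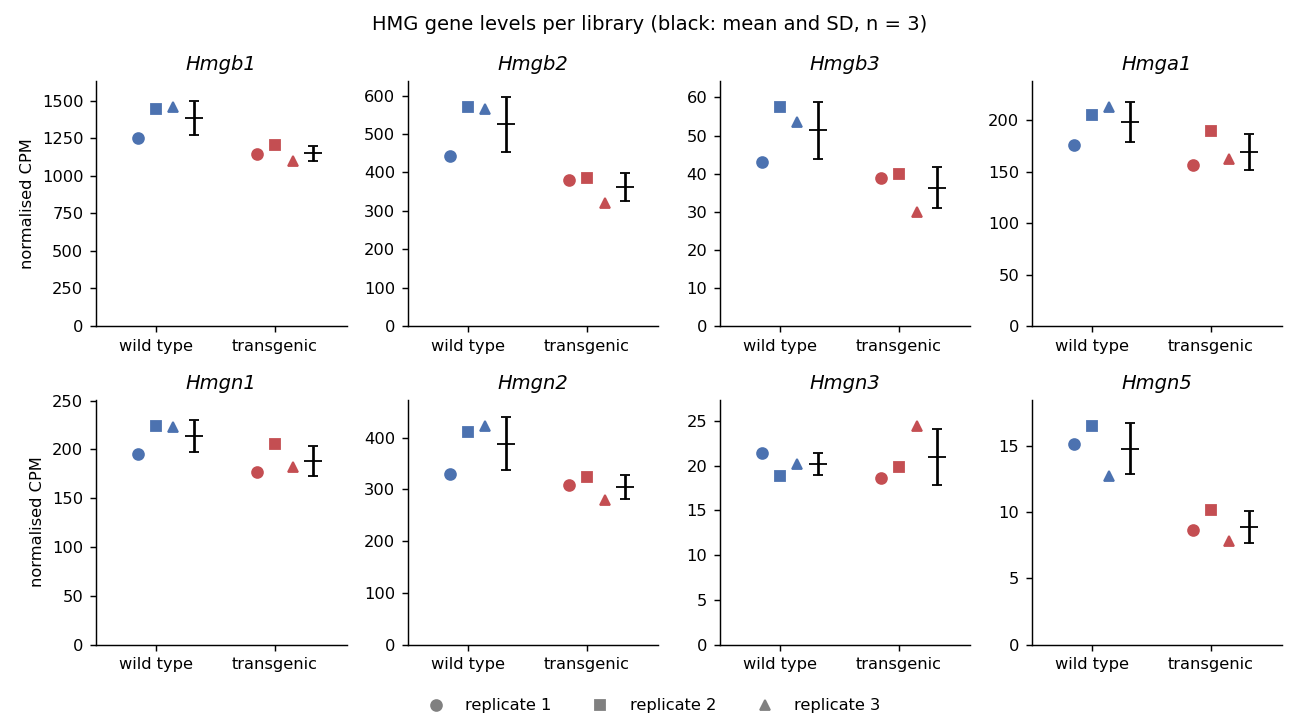
Normalised CPM (y axis, from 0) of the 8 HMG genes in each wild-type and transgenic library (circles, squares and triangles for replicates 1, 2 and 3), and black bars for the group mean and SD. The groups are apart for Hmgb1, Hmgb2, Hmgb3, Hmgn2 and Hmgn5, and they overlap for Hmga1, Hmgn1 and Hmgn3.

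Among the HMGB genes, Hmgb1 (ENSMUSG00000066551, chromosome 5, 149046702 to 149053513, minus strand, GENCODE M21 on GRCm38) was measured at 1255, 1443 and 1457 CPM in the wild-type libraries (replicates 1 to 3) against 1147, 1203 and 1098 CPM in the transgenic ones. Wild-type replicate 1 was the wild-type library nearest to the transgenic group, and the groups did not overlap. The means were 1390 ± 113 and 1150 ± 52.6 CPM (SD, n = 3), a fold of 0.83 and a log2 fold change of -0.27 ± 0.07 (SE; edgeR, adjusted p = 0.17). Hmgb1 had 43205 to 67076 fragments per library. Of the 50-base windows of its main transcript 40.9% also occur in transcripts of 132 other genes, and the 12 copies that the table lists by symbol held 0.3% to 0.5% as many fragments as Hmgb1. Gm21596, Gm15387 and Gm18194, which share the most windows with Hmgb1, are not among these copies, and their fragments were not counted.

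Hmgb2 (ENSMUSG00000054717, chromosome 8, 57511907 to 57515999, plus strand) is a paralog of Hmgb1 that follows cell division more closely. It was measured at 443, 569.9 and 564.6 CPM in the wild-type libraries (replicates 1 to 3) against 381.1, 386.8 and 320.5 CPM in the transgenic ones. The highest transgenic library stayed below the lowest wild-type one, which was again replicate 1. The mean went from 526 ± 71.8 to 363 ± 36.7 CPM (SD, n = 3), a fold of 0.69 and a log2 fold change of -0.54 ± 0.11 (SE; edgeR, adjusted p = 0.159). The table lists 1 transcript for it, and in the authors' deposited table that transcript had a log2 fold change of -0.50 with q = 0.0218. It was the 1 transcript marked significant there among the 44 HMG transcripts that the authors tested, where 111 of 44416 transcripts were significant. Of the windows of the main Hmgb2 transcript, taken as for Hmgb1, 21.9% also occur in transcripts of 9 other genes. No copy of Hmgb2 was listed by symbol, and the fragments of these 9 genes were not counted.

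Hmgb3 (ENSMUSG00000015217, X chromosome, 71555918 to 71560676, plus strand), a family member known from blood progenitors, was far less abundant than Hmgb2. Its libraries read 43.0, 57.4 and 53.7 CPM in wild type and 38.89, 40.01 and 30.06 CPM in transgenic cells. The groups did not overlap, and wild-type replicate 1 lay nearest to the transgenic libraries. The log2 fold change was -0.50 ± 0.14 (SE), from 51.3 ± 7.51 to 36.3 ± 5.45 CPM (SD, n = 3; edgeR, adjusted p = 0.189). Of the windows of its main transcript, 34.2% also occur in transcripts of 14 other genes. The 1 copy of Hmgb3 listed by symbol held at most 0.17% as many fragments as Hmgb3.

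Hmga1 (ENSMUSG00000046711, chromosome 17, 27556497 to 27563670, plus strand), the AT-hook protein, was measured at 176.1, 205.6 and 212.7 CPM in the wild-type libraries (replicates 1 to 3) against 156.7, 189.2 and 162 CPM in the transgenic ones. Transgenic replicate 2 lay above wild-type replicate 1, so the groups overlapped. The log2 fold change was -0.23 ± 0.09 (SE; edgeR, adjusted p = 0.308). A protein-coding gene, AI413582, lies on the opposite strand over Hmga1, and 83.2% of the 50-base windows of the main Hmga1 transcript also occur in transcripts of other genes, above all Hmga1b, so its reads could be split between genes. Whether the counting used strand is not stated in these sources.

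Of the HMGN genes, Hmgn2 (ENSMUSG00000003038, chromosome 4, 133964738 to 133968650, minus strand) was the most abundant per length. It read 329.3, 411.8 and 423 CPM in the wild-type libraries (replicates 1 to 3) against 307.8, 324.6 and 279 CPM in the transgenic ones. The gap between the groups was narrow, between wild-type replicate 1 and transgenic replicate 2. The means were 388 ± 51.2 and 304 ± 23.1 CPM (SD, n = 3), with a log2 fold change of -0.35 ± 0.10 (SE; edgeR, adjusted p = 0.192). Of the 50-base windows of its main transcript 67.1% also occur in transcripts of 18 other genes, many of them processed copies. The 2 copies that the table lists under a symbol derived from Hmgn2 held at most 0.03% of the fragments of Hmgn2. Gm10282 and Gm10182, which share the most windows with it, are not among these copies, and their fragments were not counted.

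Hmgn1 (ENSMUSG00000040681, chromosome 16, 96120618 to 96127729, minus strand), the close relative of Hmgn2, read 195.1, 224.1 and 222.5 CPM in wild type and 176.3, 205.3 and 181.5 CPM in transgenic cells. Transgenic replicate 2 lay above wild-type replicate 1, and the log2 fold change was -0.19 ± 0.08 (SE; edgeR, adjusted p = 0.319).

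Hmgn5 (ENSMUSG00000031245, X chromosome, 109004534 to 109013404, minus strand), an HMGN protein with a long acidic tail, had the lowest fold among the members. It was measured at 15.1, 16.5 and 12.7 CPM in the wild-type libraries (replicates 1 to 3) against 8.67, 10.1 and 7.80 CPM in the transgenic ones. The groups did not overlap, and here replicate 3, not replicate 1, was the lowest wild-type library. The means were 14.8 ± 1.93 and 8.87 ± 1.18 CPM (SD, n = 3), a fold of 0.6 and a log2 fold change of -0.74 ± 0.15 (SE; edgeR, adjusted p = 0.159). It was also the rarest member, with 307 to 768 fragments per library, and its transcript had a log2 fold change of -0.69 with q = 0.107 in the authors' deposited table. A small nuclear RNA gene, Gm23322, overlaps Hmgn5 on the same strand. Of the windows of the main Hmgn5 transcript, 18.6% also occur in transcripts of Gm11914, whose fragments were not counted.

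Hmgn3 (ENSMUSG00000066456, chromosome 9, 83109948 to 83146685, minus strand) was the member whose log2 fold change lay above 0. It read 21.4, 18.9 and 20.3 CPM in the wild-type libraries (replicates 1 to 3) against 18.6, 19.9 and 24.5 CPM in the transgenic ones. The groups overlapped, and transgenic replicate 3 was the highest library. The log2 fold change was 0.06 ± 0.12 (SE; edgeR, adjusted p = 0.893), and without transgenic replicate 3 it was -0.07, so 1 library set its direction. Gm2065 and Gm29054 lie over Hmgn3 on the opposite strand.

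The calls for these genes depended on the test and on single libraries, while their directions mostly did not. DESeq2 gave an adjusted p under 0.05 and a lower level for 5 of the 8, with 0.00432 for Hmgb1, 1.12e-05 for Hmgb2, 0.00889 for Hmgb3, 0.00513 for Hmgn2 and 0.00272 for Hmgn5, where it gave this for 3.36% of the 9706 genes to which it assigned an adjusted p. With Y-linked RNA as a covariate, edgeR called Hmgb1, Hmgb2, Hmgb3 and Hmgn2 lower (adjusted p of 0.0112, 0.00373, 0.00995 and 0.0146), against 1.4% of all genes. Without the 2 libraries that carry Y-linked RNA, the same 4 genes were called lower (edgeR, adjusted p of 0.016, 0.00517, 0.0293 and 0.0162), against 1.32% of all genes. Without wild-type replicate 1 alone, edgeR again called these 4 (adjusted p of 0.0134, 0.0123, 0.0301 and 0.0136), against 2.32% of all genes. Over 22 alternatives Hmgb1, Hmgb2, Hmgb3, Hmga1, Hmgn1 and Hmgn2 had a log2 fold change below 0 in 22 of 22, and Hmgn5 in the 21 that tested it. All alternatives refit the same libraries, so these counts are not independent support. For Hmgb1, Hmgb2, Hmgb3, Hmgn2 and Hmgn5, whose groups did not overlap, leaving out a library could hardly turn the direction. The log2 fold change of Hmgb2 ran from -0.65 to -0.45 and that of Hmgn5 from -0.84 to -0.53.

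**Figure D2:**
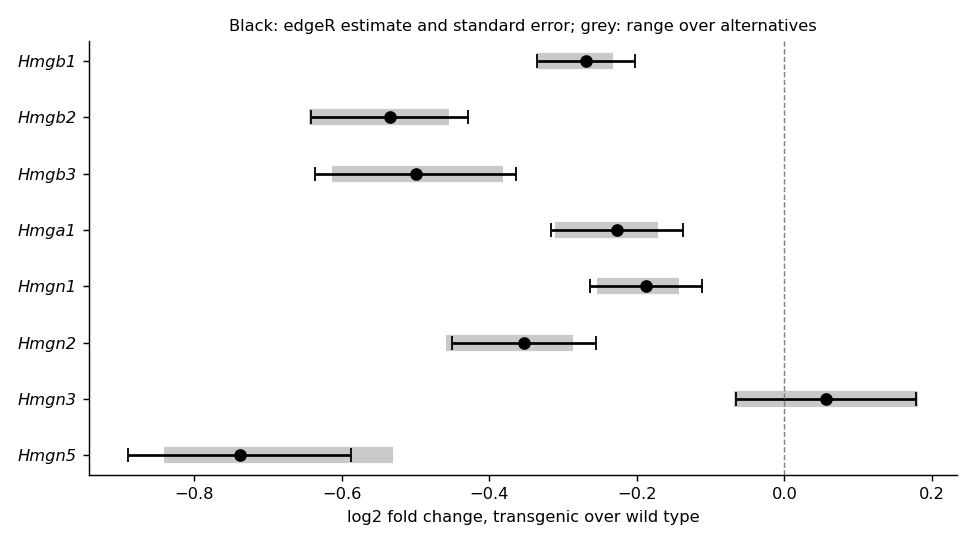
Log2 fold change (x axis, transgenic over wild type) of each HMG gene, with the edgeR estimate as a black point, its standard error as a black bar and the range over 22 alternatives as a grey band (21 for Hmgn5). The bands of Hmgb1, Hmgb2, Hmgb3, Hmga1, Hmgn1, Hmgn2 and Hmgn5 lie below 0, and that of Hmgn3 spans 0, from -0.07 to 0.18.

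The members differed from one another in how their libraries ordered. The ratio of Hmgb2 to Hmgb3 varied little. The log2 ratio of their FPKM was 2.63, 2.69 and 2.68 in the wild-type libraries (replicates 1 to 3) against 2.61, 2.67 and 2.62 in the transgenic ones, a range of 0.08 and the narrowest of the 28 pairs of members in FPKM. In CPM its range was 0.14, second to the 0.11 of Hmga1 against Hmgn1. The log2 ratio of Hmgb2 to Hmgn1 was 0.86 ± 0.08 in wild type and 0.52 ± 0.15 in transgenic cells (SD, n = 3), with no overlap. Hmgn3 against Hmgn5 went from 2.18 ± 0.12 to 3.05 ± 0.25 (SD, n = 3), also with no overlap. Of the 28 pairs, 11 did not overlap between the groups in FPKM, against 18.9% of all pairs among 9103 genes. In fragments 11 pairs did not overlap either, of which 6 were among the former and 5 were others, and both ratios just given are among the 6. The share over all pairs was computed in FPKM alone, so the counts in fragments have no background beside them. The 28 pairs reuse the same genes and are not independent. In FPKM, the pairs of Hmgn3 with Hmgb1, Hmgb2, Hmgb3, Hmga1, Hmgn2 and Hmgn5 are all among the 11. In the exact two-sided permutation test over 6 libraries the smallest p was 0.1, the smallest that 3 against 3 can give, or 0.255 after Benjamini-Hochberg adjustment over the 28. For the other pairs this p does not show that the members act alike.

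Genes of cell division were also measured lower in the transgenic libraries. Of 20 G2 and mitosis genes, such as Ccnb1, Plk1 and Top2a, all 20 had a log2 fold change below 0 with a median of -0.48, all 20 were lower at an unadjusted p under 0.05, and 0 were called. Of 20 S phase genes, such as Mcm2 and Pcna, 19 were below 0 with a median of -0.30, 18 were lower at an unadjusted p under 0.05, and 0 were called. Over all genes tested, 49.8% were below 0, 7.7% were lower at that p and 0.0136% were called. The distance of Hmgb2 to the G2 and mitosis genes varied little between libraries. Its log2 CPM minus the mean of that list was 1.92, 1.86 and 1.85 in the wild-type libraries (replicates 1 to 3) against 1.85, 1.81 and 1.86 in the transgenic ones. The difference between groups was thus -0.04, with means of 1.88 ± 0.04 and 1.84 ± 0.03 (SD, n = 3), against -0.54 for Hmgb2 on its own. The same distance of Hmgb3 was -1.47 ± 0.06 in both groups (SD, n = 3).

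Hmgb1 lay close to the S phase list instead. Its log2 CPM minus the mean of that list was 2.75 in each wild-type library and 2.82, 2.80 and 2.76 in transgenic replicates 1, 2 and 3, a difference of 0.04. Against the G2 and mitosis list, Hmgb1 differed by 0.23, at 3.28 ± 0.12 and 3.51 ± 0.11 (SD, n = 3). Hmgn2 minus the S phase list was 0.91 ± 0.08 and 0.87 ± 0.08 (SD, n = 3). Hmgn5 and Hmgn3 had the widest ranges against either list, with 0.67 and 1.20 between the lowest and highest library for G2 and mitosis and 0.72 and 0.77 for S phase, where Hmgb2 and Hmgb3 spanned 0.11 each for G2 and mitosis. The part of the dividing cells in the lower HMG levels was not tested beyond these values.

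**Figure D3:**
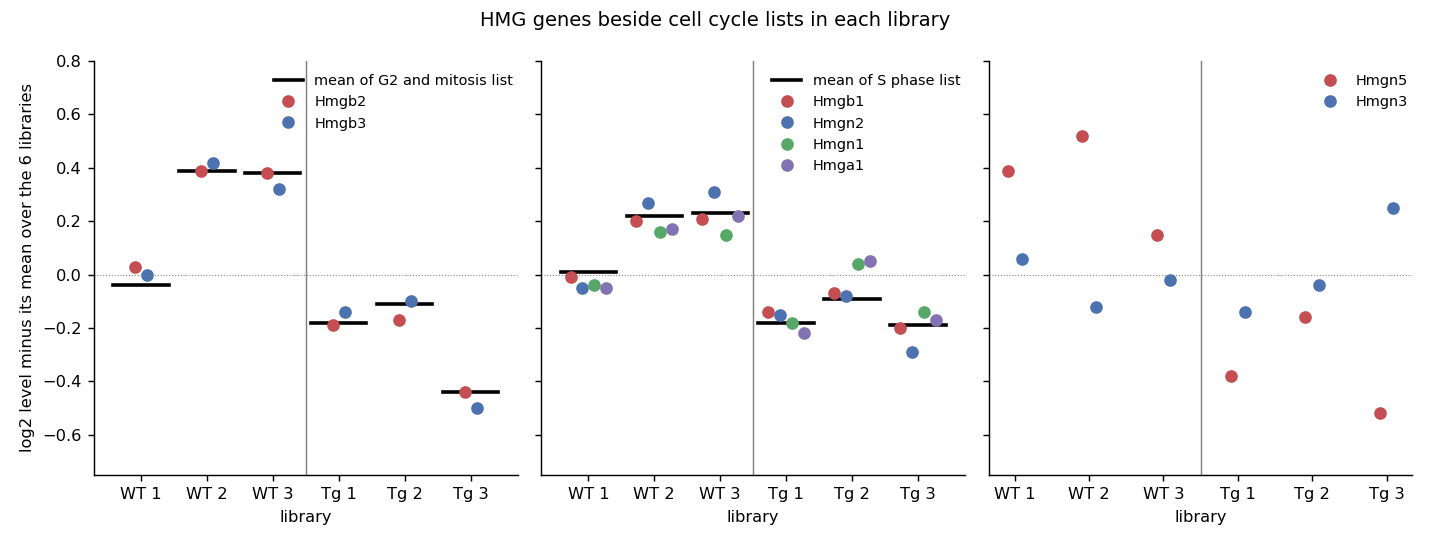
Log2 level of each gene minus its mean over the 6 libraries (y axis) in every wild-type (WT) and transgenic (Tg) library (x axis), with black lines for the mean of the 20 G2 and mitosis genes (left panel) and of the 20 S phase genes (middle panel). Hmgb2 and Hmgb3 follow the G2 and mitosis line from 0.39 in wild-type replicate 2 to -0.44 in transgenic replicate 3, while Hmgn3 has its highest value, 0.25, in that last library.

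The genes with the most similar pattern were ranked by the root mean square difference of centred log2 CPM over the 6 libraries, among 9033 genes with at least 10 CPM on average. Nearest to Hmgb2 were Cdc20, an activator of the anaphase-promoting complex and itself in the G2 and mitosis list, at 0.026, C330027C09Rik at 0.031 and Cep55, a protein of the midbody, at 0.034. Hmgb3 was rank 14 in that order, at 0.052. Nearest to Hmgb1 were Skp2, a subunit of an SCF ubiquitin ligase, at 0.013, Tuba1b, a tubulin, at 0.019 and Ran, a GTPase of nuclear transport, at 0.021. Nearest to Hmgn2 were Mrpl42 at 0.017, Mpp6 at 0.022 and Hnrnpd, an RNA-binding protein, at 0.024. These likenesses describe the same 6 libraries that the fold changes come from.

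By transcript, 36 of the 49 HMG transcripts could be tested, of which 24 had a log2 fold change below 0 and 12 above 0, against 48.4% below 0 over all transcripts tested. None was called (edgeR over 38358 transcripts, of which 0% were called). In edgeR at an unadjusted p under 0.05 there were 8 lower and 0 higher, against 3.23% of all transcripts that were lower. With limma on log2(FPKM + 0.1), 0 of the 36 HMG transcripts it tested were called, where 2 of 27674 transcripts were. Hmgn2-204 was tested by edgeR alone and Hmgn3-204 by limma alone. How fragments were divided between transcripts of a gene is the authors' estimate, and 18 of the 49 were listed at 0 in at least 1 library.

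Hmgb1 was carried mostly by Hmgb1-201, with 46.9% of its fragments, and Hmgb1-203, with 34.8%, with log2 fold changes of -0.34 ± 0.14 and -0.25 ± 0.09 (SE). The groups overlapped for Hmgb1-201, at 224, 318 and 256 FPKM in wild type and 193, 248 and 212 FPKM in transgenic libraries. They did not overlap for Hmgb1-203, at 259, 282 and 314 FPKM in wild type and 244, 257 and 243 FPKM in transgenic libraries. Hmgb3 showed 5 of 5 tested transcripts below 0, led by Hmgb3-204 at 15.3 ± 1.94 FPKM in wild type and 11.3 ± 0.879 FPKM in transgenic cells (SD, n = 3). Its retained-intron transcript, Hmgb3-206, held 16.3 ± 3.1% of the fragments in wild type and 16.5 ± 7.0% in transgenic cells (SD, n = 3). The share of Hmgb3-206 thus showed no shift beyond its spread, and shares of the other Hmgb3 forms were not compared. Hmgn2-203 held 91.8% of the fragments of Hmgn2 and went from 280 ± 35.9 to 218 ± 13.8 FPKM (SD, n = 3), while 5 of the 9 tested Hmgn2 transcripts, all minor ones, had a log2 fold change above 0. Of the Hmga1 forms, Hmga1-201 (57.7% of fragments) had a log2 fold change of -0.31 ± 0.11, Hmga1-203 (19.2%) of -0.04 ± 0.22, Hmga1-206 (15.2%) of -0.31 ± 0.09 and Hmga1-204 (5.2%) of 0.51 ± 0.30 (SE).

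The fragments of Hmgn3 belonged mostly to 3 forms, Hmgn3-201 with 37.6%, Hmgn3-203 with 29.1% and Hmgn3-202 with 28.9%. In wild-type and transgenic cells Hmgn3-201 was at 7.44 ± 0.934 and 9.60 ± 1.99 FPKM, Hmgn3-203 at 4.48 ± 0.923 and 4.79 ± 2.14 FPKM and Hmgn3-202 at 6.01 ± 1.03 and 4.82 ± 0.813 FPKM (SD, n = 3). Their log2 fold changes were 0.35 ± 0.23, 0.06 ± 0.37 and -0.33 ± 0.26 (SE; edgeR, adjusted p of 1 for each). The share of protein-coding transcripts in the fragments of Hmgb1 was 96.2 ± 1.0% and 96.1 ± 0.7% in the groups (SD, n = 3).

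**Figure D4:**
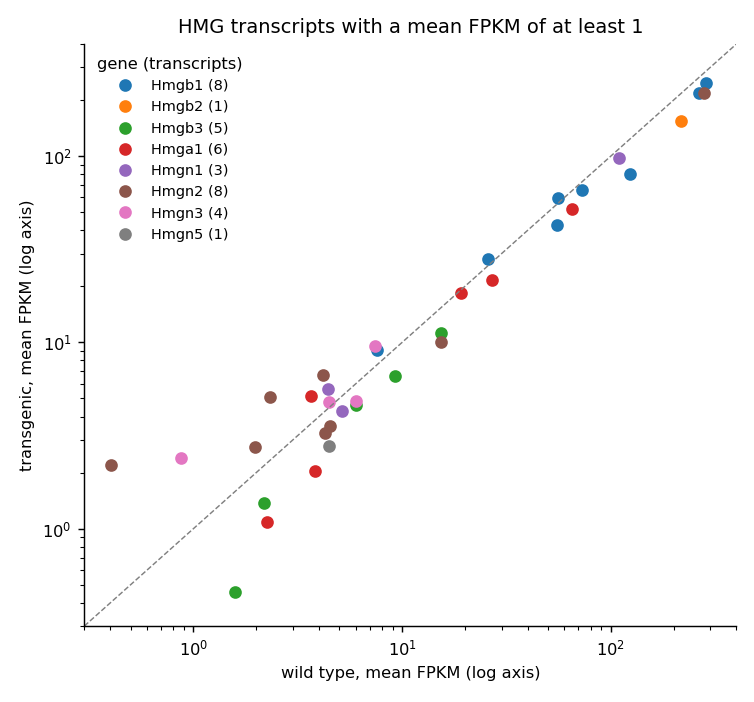
Mean FPKM over 3 libraries of the 36 HMG transcripts with a mean FPKM of at least 1 over all libraries, in wild type (x axis, log scale) against transgenic cells (y axis, log scale), coloured by gene, with a dashed line of equality. The abundant forms, such as Hmgb2-201 at 218 and 154 FPKM and Hmgn2-203 at 280 and 218 FPKM, lie below the line, and minor forms scatter to either side of it.

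Other proteins with an HMG box, from the architectural factor Ssrp1 to the T cell factors Tcf7, Lef1 and Tox, lay to both sides of 0. Of 25 tested, 9 had a log2 fold change below 0 and 16 above 0, with a median of 0.07, and 0 were called. Over all genes, 49.8% were below 0 and 7.7% were lower at an unadjusted p under 0.05. At that p, 4 of the 25 were lower and 3 higher. The smallest p values belonged to Cic, a repressor of MAP kinase target genes, at 0.17 ± 0.05, Tfam, which packs mitochondrial DNA, at -0.18 ± 0.06, and Ssrp1, a subunit of the histone chaperone FACT, at -0.17 ± 0.07 (log2 fold change ± SE; edgeR, adjusted p of 0.206, 0.251 and 0.289).

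Among 24 tested genes whose products act with HMG proteins, 17 were below 0 and 7 above 0, with a median of -0.09, and 0 were called. Beside them, 49.8% of all genes were below 0 and 7.7% were lower at an unadjusted p under 0.05. At that p, 6 of the 24 were lower and 1 higher. The higher one was Cxcr4, the receptor through which HMGB1 bound to CXCL12 acts, at 344, 331 and 329 CPM in the wild-type libraries (replicates 1 to 3) against 396, 407 and 385 CPM in the transgenic ones. Its groups did not overlap, and the log2 fold change was 0.24 ± 0.05 (SE; edgeR, adjusted p = 0.159). Supt16, the partner of Ssrp1 in FACT, was at -0.22 ± 0.06 and Xpo1, the nuclear export receptor that carries HMGB1 out of the nucleus, at -0.24 ± 0.07 (log2 fold change ± SE; edgeR, adjusted p of 0.187 and 0.219). For Rag1 and Rag2, the recombinase that HMGB1 and HMGB2 assist, the log2 fold changes were -0.08 ± 0.06 and 0.05 ± 0.08 (SE; edgeR, adjusted p of 0.582 and 0.839).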

How the data were processed

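Libraries were made from total RNA treated with DNase and freed of ribosomal RNA, per the labels' protocols. TopHat2, Cuffdiff and the mm10 build are named in the submitters' processing notes, without versions, annotation release or strand setting. Per the file headers, the deposited values are an estimated count of fragments and an FPKM for each transcript in each library. The authors' own comparison of the groups is in the same table, as log2 fold changes with their p-values and q-values. The authors' test statistic, a score, and the externally scaled fragments, both deposited in that table, were not used, and no per-sample column lacked a labelled sample.

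The estimated counts of a symbol were added up and then rounded to whole numbers. The 197 genes at loci where the table's status marks a failed estimate, none of them an HMG member, were left out. Genes passing filterByExpr (minimum count 10, minimum total 15) were tested in edgeR 4.0.16 (R 4.3.3) by the quasi-likelihood test after TMM scaling, transgenic against wild type, two-sided, with Benjamini-Hochberg adjustment over all 14653 genes and a threshold of 0.05. Standard errors derive from the F statistic. The script was tested on simulated data. Transcripts were tested in the same way, with limma 3.58.1 beside it. Libraries of 1 group differed by more than sampling noise (chi-square of 16.4 to 43.6 per gene), so none was treated as a duplicate. The alternatives included DESeq2 1.42.0, limma with either pseudocount (0.1 or 1) on FPKM, other filters, scalings and dispersion priors, a replicate block, Y-linked RNA as a covariate, dropped libraries and adding the copies to the members. The members, lists and alternatives were chosen with earlier results of these data known. Named were the 8 members, their transcripts with a mean FPKM of at least 1 (the 36 plotted), the 3 genes nearest to Hmgb2, Hmgb1 and Hmgn2, and the 3 smallest p of the HMG-box and partner lists. Rag1, Rag2 and the list examples are named beyond that rule. Gene positions follow GENCODE M21 (GRCm38), and promoter sequences RefSeq (GRCm38.p6).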

Additional observations from a re-analysis of the deposited data

How the results depend on the processing

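The number of genes called moved from 2 to 493 with DESeq2, 428 with DESeq2 on the genes of the edgeR filter, 4 with limma on log2(FPKM + 0.1), 127 with no filter on low counts, 1 with a mean FPKM of at least 5, 20 with a robust dispersion prior, 256 with a covariate for Y-linked RNA, 260 without the 2 libraries with Y-linked RNA and 92 with the failed loci kept. The number of HMG genes called moved from 0 to 5 with DESeq2 on either set of genes, 2 with no filter (edgeR, Hmgb2 at an adjusted p of 0.0183 and Hmgn5 at 0.0421), and 4 with the covariate or without the Y-linked libraries. It stayed at 0 under the other scalings, filters and fits, and with the copies listed by symbol summed with the members. Those copies held at most 0.5% as many fragments as their member, and none was listed for Hmgb2, Hmgn1, Hmgn3 or Hmgn5. Adding them could therefore hardly change a call. Other genes that share windows with the members were not added, so their part was not tested. Leaving out each library in turn gave 1 to 498 genes and 0 to 4 HMG genes called, the highest values without wild-type replicate 1. The log2 fold change of Hmgn3 turned from 0.057 to -0.027 without the Y-linked libraries and to -0.069 without transgenic replicate 3. The cause of these changes was not tested. Replicate numbers gave no clear pairing of the libraries. Correlations of deviations were 0.18, 0.14 and 0.00 for the same number and ran from -0.24 to 0.16 for different numbers. With the replicate number as a block 14 genes and 0 HMG genes were called. Counting error of a library was 0.4% to 2.6% of the mean for Hmgb1, Hmgb2, Hmgb3, Hmga1, Hmgn1 and Hmgn2, beside an SD between libraries of 4.6% to 15%. For Hmgn3 it was 3.3% in wild type beside an SD of 6.2%, and for Hmgn5 5.3% in transgenic cells beside 13.3%.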
